A study of Homo sapiens with 9 samples.

Results

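The proteasome is the multi-subunit protease that degrades proteins tagged with ubiquitin, and the genes of its subunits and assembly factors were examined in breast cancer cells treated with siRNAs against the long noncoding RNA LINC00673. The members are all genes of the table whose symbol is PSMA, PSMB, PSMC, PSMD, PSME, PSMF or PSMG followed by a number. This rule uses the symbol alone, but the set was chosen with earlier results of these data known. In all, 47 of 19930 genes met the rule. They comprise 18 core subunits (7 PSMA and 11 PSMB), 20 regulatory genes (6 PSMC and 14 PSMD), 4 activators (PSME), 4 assembly factors (PSMG) and the inhibitor PSMF1.

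RNA sequencing was performed on cells labelled MDA-MB-453, an established human breast cancer cell line, in 3 groups of 3 libraries. The cells were transfected with si-LINC00673-1, si-LINC00673-2 or the control siRNA si-NC using Lipofectamine 2000 and harvested after 48 h. The labels state only knockdown or control, and the number of the siRNA was read from the library titles. In each group the libraries carry no suffix, r1 or r2, and nothing in the labels says whether they came from separate cultures, so the P values measure the spread between these libraries, which may be technical. LINC00673 itself was not analysed here, so the depletion of the target was not checked in these libraries.

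In the proteasome, the alpha (PSMA) and beta (PSMB) subunits form stacked rings with the cutting sites inside. The regulatory particle caps the rings. Its ring of ATPases (PSMC) unfolds the substrate, and its other subunits (PSMD) form the scaffold of the base and the lid, bind ubiquitin chains and remove them. Interferons are known to induce a second set of catalytic beta subunits (PSMB8, PSMB9 and PSMB10), which take the places of PSMB5, PSMB6 and PSMB7, and the activator genes PSME1 and PSME2. Cancer cells are known to depend on proteasome activity, and when it is inhibited the transcription factor NFE2L1 raises the subunit genes together through antioxidant response elements in their promoters.

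The depth estimated from the files was 23.3 to 27.3 (in units of 1e6 fragments) per library, the values being FPKM (fragments normalised for gene length and library size), and libraries of the same group correlated at 0.9945 to 0.9959 over the tested genes on the log2(FPKM + 1) scale. Cell identity was checked against marker genes. The epithelial genes KRT8, KRT18 and EPCAM were high (287 FPKM or more in each library), ERBB2 lay at 11.8 to 17.8 FPKM and FGFR4 at 17.9 to 33.0 FPKM. FOXA1 reached at most 0.04 FPKM and GATA3 lay at 0.41 to 0.88 FPKM (both chosen after the values had been seen). Both are genes of luminal breast cells, such low levels go against the cell line label in all groups alike, and what this means was not tested. Among markers of other cells, PTPRC, PECAM1 and KRT5 stayed at or under 0.63 FPKM and COL1A1 lay at 3.49 to 7.08 FPKM.

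Proteasome genes were abundant in the control cells. Of the 47 members, 46 averaged 1 FPKM or more across the libraries and were tested. PSMB11, the beta subunit of the thymus, was listed at 0.02 FPKM in the unsuffixed si-LINC00673-1 library and at 0 in the other 8 libraries. The median level of the tested members with si-NC was 53.6 FPKM, compared with 9.32 FPKM for all 12884 tested genes, and 45 members lay above the latter value. FPKM are scaled by length, so comparisons of level between genes depend on the transcript length used.

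**Figure D1:**
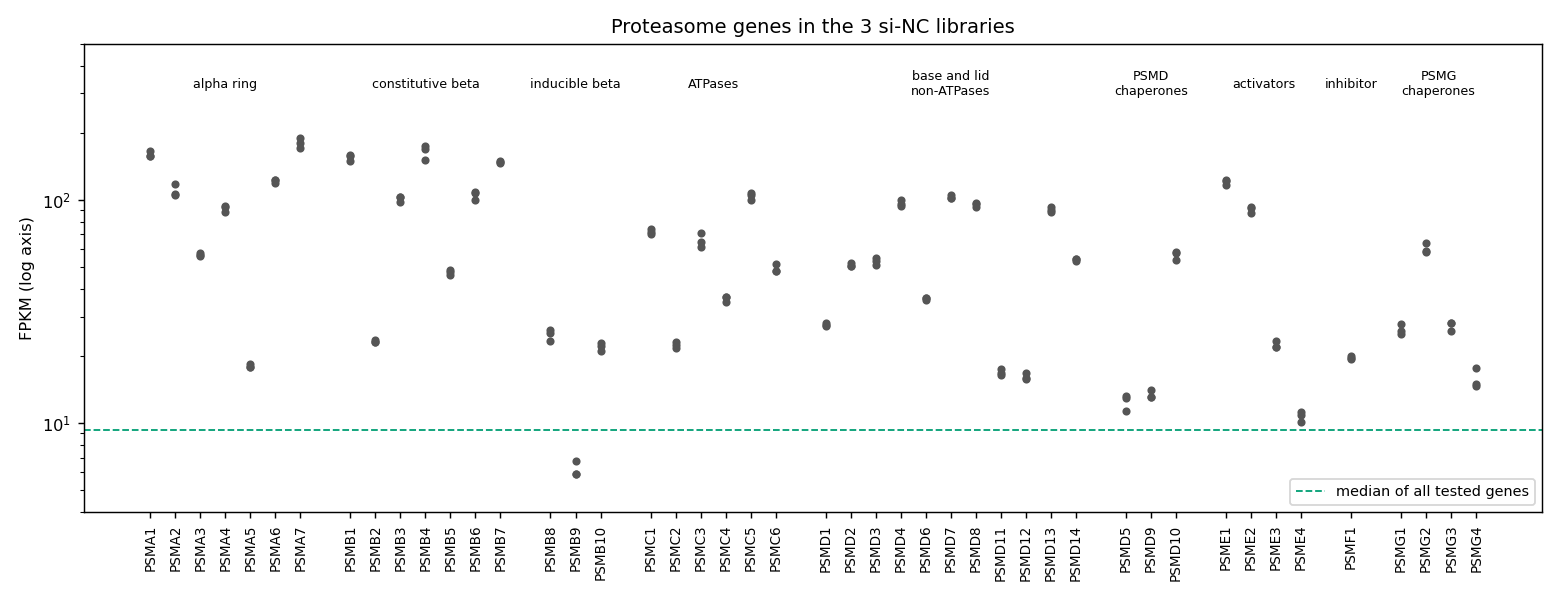
FPKM (log axis) of the 46 tested proteasome genes in each of the 3 si-NC libraries (points), ordered by class, with the median of all tested genes at 9.32 FPKM as a dashed line. PSMB9 alone lies under the line, and the alpha ring spans 18.0 FPKM (PSMA5) to 181 FPKM (PSMA7).

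Levels within a class were uneven, although the subunits of a ring are built in equal numbers. The alpha ring ran from 18.0 ± 0.30 FPKM for PSMA5 to 181 ± 8.91 FPKM for PSMA7 (mean ± SD, n = 3 si-NC libraries). The constitutive beta subunits ran from 23.3 ± 0.30 FPKM for PSMB2 to 165 ± 11.7 FPKM for PSMB4. The ATPases spanned 22.4 FPKM for PSMC2 to 104 FPKM for PSMC5. The non-ATPase subunits of the base and lid spanned 16.2 FPKM for PSMD12 to 103 FPKM for PSMD7. PSMA5, PSMB2, PSMC2 and PSMD12 also have the longest listed transcripts of their subunit groups, at 3826, 4744, 2831 and 4690 bases. Whether this bears on their levels was not tested. At the lower end of all members were the inducible PSMB9 at 6.19 FPKM, the nuclear activator PSME4 at 10.7 FPKM, and the base assembly chaperones PSMD5 at 12.5 FPKM and PSMD9 at 13.4 FPKM. PSMD5 and PSMD9 are neighbours in this order and their si-NC libraries overlapped.

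With si-LINC00673-1, 25 of the 46 tested members rose (54.3%) and 10 fell (21.7%) against si-NC, where rising or falling means passing 0.05 in P adjusted over all tested genes by the Benjamini-Hochberg method. Among all tested genes 32.1% rose and 32.3% fell. With si-LINC00673-2, 26 members rose (56.5%) and 11 fell (23.9%), compared with 26.0% and 44.8% of all tested genes. The members had a median log2 fold change of 0.12 (si-LINC00673-1) and 0.14 (si-LINC00673-2), beside 0.0032 and -0.095 for all tested genes. Both comparisons share the si-NC libraries. In bulk RNA, a change in the amount of a transcript per cell and a change in the mix of cells cannot be told apart.

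Most of these changes were small. A fold change of at least 1.3 (0.38 on the log2 scale) was reached by 5 members that rose and 5 that fell with si-LINC00673-1 (10.9% each), compared with 11.0% and 15.5% of all tested genes. With si-LINC00673-2 this limit was reached by 5 members that rose (10.9%) and 4 that fell (8.70%), compared with 10.9% and 23.0% of all tested genes. The share of members past the fold limit upwards was therefore near the background with each siRNA. These small counts moved with the processing: after removal of a length trend 8 members rose and 1 fell past the limit with si-LINC00673-1, and after removal of a GC trend 3 rose and 4 fell. With si-LINC00673-2, 8 rose and 3 fell after median-ratio scaling, 9 and 3 after removal of the GC trend, and 8 and 4 after removal of the length trend. Without the fold limit, removal of the GC trend changed the split with si-LINC00673-1 from 25 and 10 to 22 and 14.

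**Figure D2:**
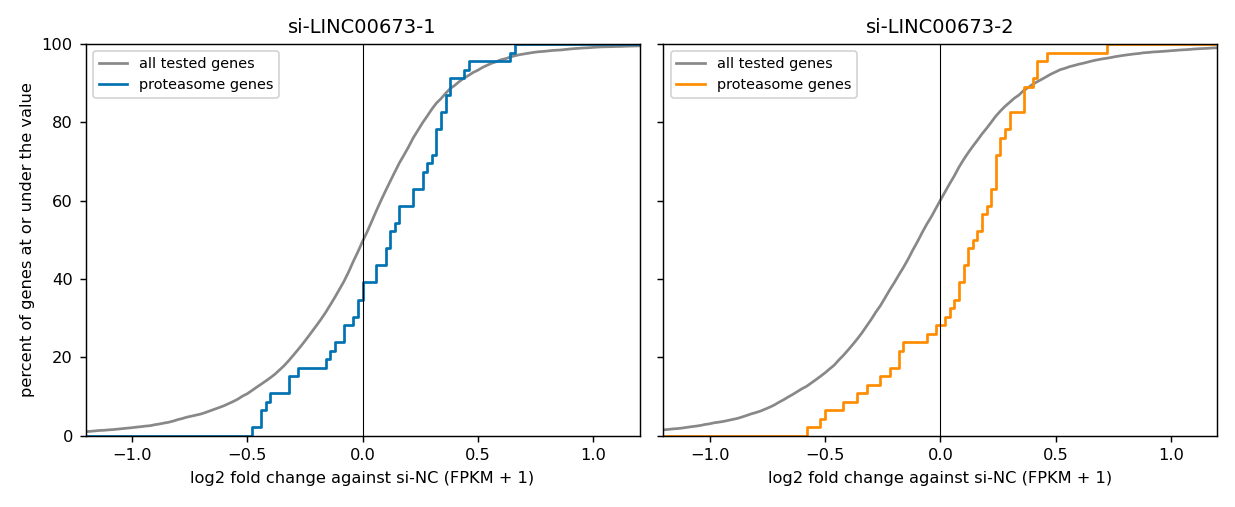
Cumulative percentage of genes (vertical axis) at or under each log2 fold change against si-NC (horizontal axis), for all 12884 tested genes (grey) and the 46 tested proteasome genes (coloured steps), with 1 panel per siRNA. At a log2 fold change of 0 the curves stand at 49.6% of all genes and 39.1% of the members with si-LINC00673-1, and at 60.2% and 28.3% with si-LINC00673-2.

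The libraries of 24 members did not overlap in the upward direction, in that all 6 siRNA libraries lay above all 3 si-NC libraries (52.2% of members, compared with 23.0% of all tested genes). The 6 siRNA libraries lay below the si-NC libraries for 9 members (19.6%, compared with 31.1% of all tested genes). The 24 genes that rose with both siRNAs were PSMA1, PSMA3, PSMA4, PSMA5, PSMA6, PSMB1, PSMB2, PSMB3, PSMB6, PSMB7, PSMC6, PSMD1, PSMD2, PSMD6, PSMD7, PSMD8, PSMD10, PSMD11, PSMD12, PSMD13, PSMD14, PSME3, PSME4 and PSMF1. The 8 that fell with both were PSMB4, PSMB9, PSMB10, PSMC5, PSMD4, PSME1, PSME2 and PSMG2. PSMA2, PSMB5, PSMC1, PSMC3, PSMC4 and PSMD3 passed in neither comparison. In this fit 0 members passed in opposite directions with the 2 siRNAs, but PSMA7 did so under each of the 3 other scalings (median-ratio scaling, removal of the GC trend and removal of the length trend), and PSMA2 and PSMD3 did so after removal of the GC trend.

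By median, the members that fell with both siRNAs were richer in G and C than those that rose with both, but not richer than the other tested members. The 24 genes that rose with both siRNAs had a median transcript GC content of 43.9% (32.0% to 55.0%) and a median length of 1694 bases. The 8 genes that fell with both had a median of 51.7% (46.9% to 60.1%) and 1086 bases. The other 14 tested members had 52.3% (38.9% to 58.8%) and 1581.5 bases. All tested genes had 48.8% and 3542 bases. The GC content is that of the longest GENCODE transcript and the length is as deposited, so they can describe different transcripts. For PSMB9 these are 2676 and 1048 bases long. After a trend of the log2 values with GC content was removed, 21 of the 24 and 7 of the 8 still passed with both siRNAs. The 7 included every fallen gene but PSMB10, whose log2 fold change with si-LINC00673-2 became 0.03 (adjusted P = 0.48). After removal of a length trend, 23 and 7 passed with both.

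The promoters of these genes were read next, because the antioxidant response element (core TGACNNNGC, searched on both strands) is the site through which NFE2L1 is known to act on subunit genes. RefSeq promoters of 300 bases, 250 of them before the start, were given for 41 of the 47 members (50 promoters, GRCh38.p14). PSMA7, PSMB1, PSMB6, PSMB7, PSMD4 and PSMG3 had no entry. The core motif was found in 15 of the 50 member promoters (30.0%), compared with 13.3% of all 35116 promoters of the same length. Counted by gene, it was present in 15 of 41 members (36.6%) and in 19.6% of the 9393 tested genes with a promoter. It was present in 5 of the 21 genes with a promoter that rose with both siRNAs (23.8%) and in 5 of the 7 that fell with both (71.4%). A match to these letters is a description and does not show that a factor binds there.

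Windows of 41 bases around the motif are given here for the members that passed with both siRNAs and whose match lay before the start, first the genes that fell and then those that rose. They are shown because the same motif stood upstream of members that moved in both directions. Each reads 5′ to 3′ on the strand that carries the motif, which is in capitals.
PSMC5 (fell, chr17:63827648-63827688, minus strand): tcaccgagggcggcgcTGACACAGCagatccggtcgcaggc
PSMB9 (fell, chr6:32854028-32854068, minus strand): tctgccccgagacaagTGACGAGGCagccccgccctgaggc
PSME1 (fell, chr14:24136092-24136132, plus strand): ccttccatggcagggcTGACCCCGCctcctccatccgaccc
PSME2 (fell, chr14:24146761-24146801, minus strand): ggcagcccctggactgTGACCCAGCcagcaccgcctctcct
PSMG2 (fell, chr18:12658683-12658723, plus strand): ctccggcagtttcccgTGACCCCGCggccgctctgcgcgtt
PSMA4 (rose, chr15:78540644-78540684, plus strand): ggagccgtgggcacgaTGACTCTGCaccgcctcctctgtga
PSMB3 (rose, chr17:38752621-38752661, plus strand): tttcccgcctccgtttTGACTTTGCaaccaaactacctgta
PSMD12 (rose, chr17:67366718-67366758, minus strand): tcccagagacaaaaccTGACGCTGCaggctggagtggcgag
PSME4 (rose, chr2:53971003-53971043, plus strand): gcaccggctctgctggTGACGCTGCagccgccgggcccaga
The matches of PSMC5, PSMB9 and PSME4 are on the strand opposite to the gene. The match of PSMD1, the tenth such gene, lies after its start and is not shown.

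Of the other motifs, the CCAAT box, bound by NF-Y, was found in 20 of 50 member promoters (40.0%), compared with 34.6% of all promoters. By gene it was present in 11 of the 21 members that rose with both siRNAs and in 2 of the 7 that fell. By gene the CCAAT box was in 48.8% of members and 43.3% of tested genes. GGGCGG, the GC box bound by SP1, was found in 34 of 50 member promoters (68.0%), compared with 45.0% of all promoters. By gene the GC box was in 68.3% of members and 78.7% of tested genes.

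**Figure D3:**
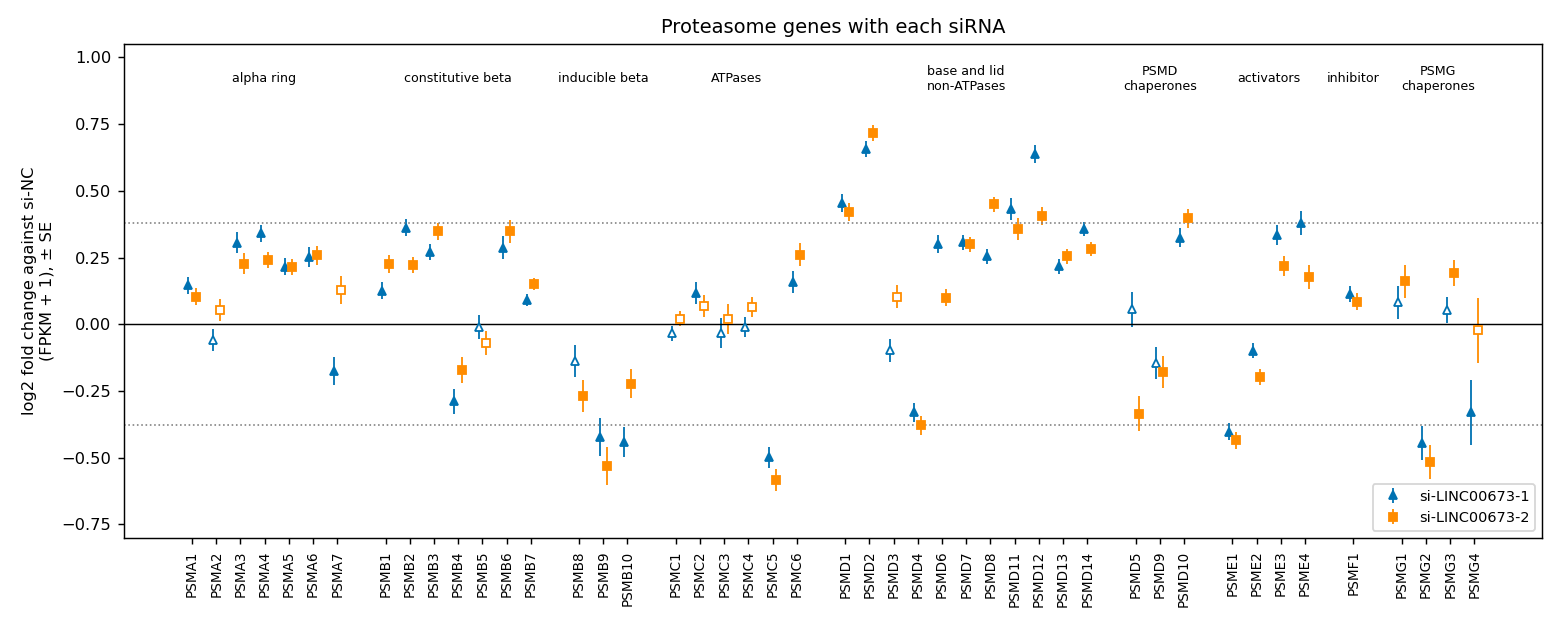
Log2 fold change against si-NC on the log2(FPKM + 1) scale (points, bars ± SE) of the 46 tested proteasome genes with si-LINC00673-1 (triangles) and si-LINC00673-2 (squares), ordered by class. Filled points have an adjusted P of at most 0.05 and dotted lines mark a fold of 1.3, which PSMD1, PSMD2 and PSMD12 pass upwards and PSMB9, PSMC5, PSME1 and PSMG2 downwards with both siRNAs.

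By class, the core subunits had a median log2 fold change of 0.13 with si-LINC00673-1 and 0.15 with si-LINC00673-2. With each siRNA 10 of the 17 tested core genes rose (58.8%) and 4 fell (23.5%). Of all tested genes, 32.1% rose and 32.3% fell with si-LINC00673-1 and 26.0% rose and 44.8% fell with si-LINC00673-2, and each count by class or list is to be read against these shares. The regulatory class had medians of 0.19 and 0.18. With si-LINC00673-1, 12 of its 20 genes rose and 2 fell, and with si-LINC00673-2, 11 rose and 4 fell. The 4 activators split evenly, with 2 that rose and 2 that fell with each siRNA and medians of 0.12 and -0.01. In the 4 assembly factors the medians were -0.14 and 0.07, the second of which rests on the r1 library of si-LINC00673-2, since without it the median was -0.02. Differences between classes were not tested.

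The summed FPKM of the core genes was 1536 ± 21.6 with si-NC (mean ± SD, n = 3), 1627 ± 6.35 with si-LINC00673-1 and 1695 ± 9.94 with si-LINC00673-2, and the 3 groups did not overlap. The regulatory genes summed to 1072 ± 11.1, 1174 ± 7.35 and 1192 ± 7.21. The activators summed to 244 ± 2.23 FPKM with si-NC and were lower with si-LINC00673-1 at 218 ± 1.96 and with si-LINC00673-2 at 206 ± 2.74. The assembly factors summed to 130 ± 2.77, 112.5 ± 0.65 and 118 ± 5.39 FPKM. The activator sum was lower with si-LINC00673-1 and the assembly sum lower with si-LINC00673-2, where the class medians of the fold changes were above 0. For 3 libraries against 3, an exact permutation test cannot give a two-sided P under 0.10, so no test was run on these sums.

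The alpha ring, which gates the entry to the chamber, moved upwards in most of its subunits. With each siRNA 5 of its 7 genes rose, with a median log2 fold change of 0.22 in both comparisons. The largest of these rises with si-LINC00673-1 was that of PSMA4, at 0.34 ± 0.03 (log2 ± SE, adjusted P = 8.3e-06), and with si-LINC00673-2 that of PSMA6, at 0.26 ± 0.04 (adjusted P = 1.3e-04). PSMA2 passed with neither siRNA, although after removal of the GC trend it stood at -0.13 (adjusted P = 0.0022) and 0.11 (adjusted P = 0.0068). PSMA7 lay at 189, 172 and 181 FPKM with si-NC, compared with 167, 160 and 152 after si-LINC00673-1 and 184, 204 and 204 after si-LINC00673-2. Its si-LINC00673-1 libraries were all under the si-NC libraries, and the si-LINC00673-2 libraries overlapped them. PSMA7 fell by 0.18 ± 0.05 on the log2 scale with si-LINC00673-1 (adjusted P = 0.014), while its value with si-LINC00673-2 was 0.13 ± 0.05 (adjusted P = 0.052). The latter passed upwards at 0.20 after median-ratio scaling (adjusted P = 0.0078), at 0.26 with the GC trend removed (adjusted P = 6.1e-05) and at 0.16 with the length trend removed (adjusted P = 0.0066), while the fall with si-LINC00673-1 passed under all 3. The fall was no longer past the threshold without the r2 library of si-LINC00673-1 (-0.14, adjusted P = 0.058) or the unsuffixed si-NC library (-0.14, adjusted P = 0.058). PSMA1 rose by 0.15 and 0.10, and its rise with si-LINC00673-2 missed the threshold without the unsuffixed or the r2 si-NC library. Of its 100-base stretches 39.1% also occur in another annotated gene, so its counts may be uncertain. Whether reads were split between these genes is not known.

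The constitutive beta subunits rose in 5 of 7 genes with each siRNA (PSMB1, PSMB2, PSMB3, PSMB6 and PSMB7), with medians of 0.13 and 0.22. Of the 3 catalytic subunits among them, PSMB5 carries the chymotrypsin-like, PSMB6 the caspase-like and PSMB7 the trypsin-like site. PSMB5 lay at 48.4, 46.0 and 47.7 FPKM with si-NC, compared with 47.3, 49.3 and 44.5 after si-LINC00673-1 and 43.4, 44.9 and 46.9 after si-LINC00673-2. The groups overlapped, with log2 fold changes of -0.01 (95% interval -0.11 to 0.09) and -0.07 (-0.17 to 0.03). PSMB6 lay at 108, 107 and 99.6 FPKM with si-NC, compared with 127, 133 and 125 after si-LINC00673-1 and 128, 135 and 139 after si-LINC00673-2. All 6 siRNA libraries were above the si-NC libraries, and PSMB6 rose by 0.29 ± 0.04 (adjusted P = 2.0e-04) and 0.35 ± 0.04 (adjusted P = 4.3e-05). PSMB7 rose less, by 0.09 ± 0.02 (adjusted P = 0.0072) and 0.15 ± 0.02 (adjusted P = 2.8e-04), and after removal of the GC trend its first value was 0.05 (adjusted P = 0.061). PSMB4, a non-catalytic subunit, went the other way. It fell by 0.29 ± 0.05 on the log2 scale with si-LINC00673-1 (adjusted P = 4.4e-04) and by 0.17 ± 0.05 with si-LINC00673-2 (adjusted P = 0.0086), the latter being -0.10 (adjusted P = 0.11) after median-ratio scaling.

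The inducible catalytic subunits were lower. PSMB9, the counterpart of PSMB6, lay at 5.91, 6.73 and 5.92 FPKM with si-NC, compared with 4.55, 4.06 and 4.48 after si-LINC00673-1 and 3.78, 3.71 and 4.45 after si-LINC00673-2. The siRNA libraries did not overlap the si-NC libraries, and PSMB9 fell by 0.42 ± 0.07 (adjusted P = 5.3e-04) and by 0.53 ± 0.07 (adjusted P = 9.1e-05) on the log2 scale. Without the r1 library of si-NC the first value was -0.37, under the fold limit, with an adjusted P of 0.0023. With the length trend removed it was -0.36, also under the limit (adjusted P = 0.0021). PSMB9 rested on 88 to 164 fragments per library, the fewest of the tested members. PSMB10, the counterpart of PSMB7, lay at 22.1, 20.9 and 22.8 FPKM with si-NC, compared with 17.2, 15.5 and 15.0 after si-LINC00673-1 and 18.0, 18.5 and 19.5 after si-LINC00673-2. It fell by 0.44 ± 0.05 (adjusted P = 6.4e-05) and by 0.22 ± 0.05 (adjusted P = 0.0043), and after removal of the GC trend these values were -0.24, under the fold limit, and 0.03. With the length trend removed the first was also just under the limit. Of its 100-base stretches 31.7% also occur in another annotated gene, so its counts may be uncertain. Whether reads were split is not known.

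PSMB8, the counterpart of PSMB5, lay at 26.2, 23.4 and 25.4 FPKM with si-NC, compared with 23.8, 21.1 and 23.0 after si-LINC00673-1 and 19.3, 20.6 and 21.9 after si-LINC00673-2. The si-LINC00673-1 libraries overlapped si-NC, with a log2 fold change of -0.14 ± 0.06 (adjusted P = 0.070). The si-LINC00673-2 libraries did not, and PSMB8 fell by 0.27 ± 0.06 on the log2 scale with that siRNA (adjusted P = 0.0028). The difference between the 2 siRNAs was -0.13 ± 0.06 (adjusted P = 0.11).

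Within the catalytic pairs, the inducible transcript was the minor one throughout. PSMB9 made up 5.56 ± 0.37% of the summed FPKM of PSMB9 and PSMB6 with si-NC, 3.29 ± 0.28% with si-LINC00673-1 and 2.88 ± 0.21% with si-LINC00673-2 (mean ± SD, n = 3 each). PSMB10 made up 12.9 ± 0.41% of its pair with PSMB7 with si-NC, 9.18 ± 0.68% with si-LINC00673-1 and 10.2 ± 0.50% with si-LINC00673-2. In both pairs the siRNA libraries lay under all si-NC libraries. PSMB8 made up 34.5 ± 0.78% of its pair with PSMB5 with si-NC, 32.5 ± 2.18% with si-LINC00673-1 and 31.4 ± 0.56% with si-LINC00673-2. For this pair the si-LINC00673-1 libraries overlapped the si-NC libraries.

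**Figure D4:**
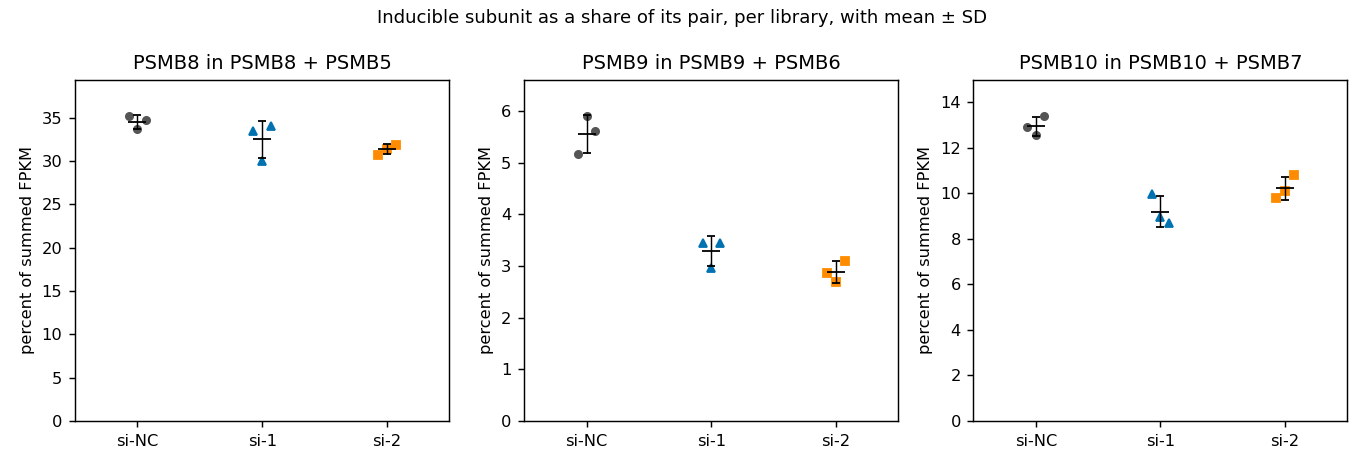
Inducible catalytic subunit as a percentage of the summed FPKM of its pair (vertical axes from 0), in each of the 3 libraries of si-NC, si-LINC00673-1 (si-1) and si-LINC00673-2 (si-2), with mean ± SD. The PSMB9 share stands at 5.18% to 5.90% with si-NC and at 2.68% to 3.46% over the 6 siRNA libraries.

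In the regulatory particle, PSMC5 had the largest change of the 6 ATPases. PSMC5 lay at 105, 107 and 99.4 FPKM with si-NC, compared with 70.9, 73.2 and 75.7 after si-LINC00673-1 and 66.4, 69.4 and 71.5 after si-LINC00673-2. No siRNA library reached the lowest si-NC library, and PSMC5 fell by 0.50 ± 0.04 (adjusted P = 4.0e-06) and by 0.58 ± 0.04 (adjusted P = 9.8e-07) on the log2 scale, to 0.71 and 0.67 of the control on the log2(FPKM + 1) scale. The gene lies on chromosome 17 from 61904770 to 61909387 (GRCh37). PSMC6 rose with both siRNAs, by 0.16 ± 0.04 and 0.26 ± 0.04. In the main fit PSMC2 passed with si-LINC00673-1 alone, at 0.12 ± 0.04 (adjusted P = 0.030). It lost this without the r1 or r2 library of that siRNA or the unsuffixed or r2 library of si-NC, when its values ranged from 0.08 to 0.12. With the GC trend removed its si-LINC00673-1 value was 0.04 (adjusted P = 0.42). With si-LINC00673-2 PSMC2 passed upwards after median-ratio scaling (0.14) and with the GC (0.13) or length trend (0.19) removed. PSMC1, PSMC3 and PSMC4 had log2 fold changes of -0.03 to 0.07 in both comparisons and passed in neither. Under other scalings PSMC4 passed upwards with si-LINC00673-2 at 0.14 to 0.19, and PSMC1 and PSMC3 each passed under at least 1 of them. For PSMC1, 25.8% of 100-base stretches also occur in another gene, the processed copy PSMC1P1, so its counts may be uncertain.

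**Figure D5:**
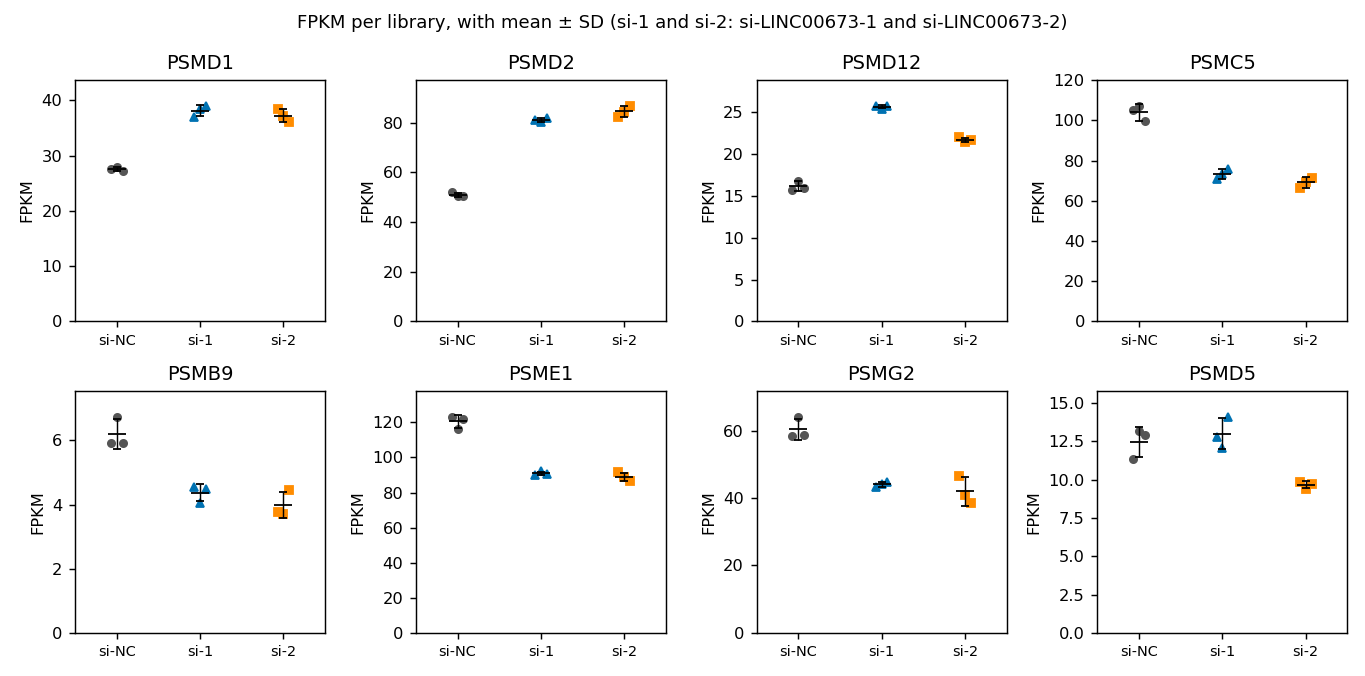
FPKM per library (vertical axes from 0), with mean ± SD, of the 7 genes past a fold of 1.3 with both siRNAs and of PSMD5, in si-NC, si-LINC00673-1 (si-1) and si-LINC00673-2 (si-2). PSMD1, PSMD2 and PSMD12 are higher and PSMC5, PSMB9, PSME1 and PSMG2 lower in all 6 siRNA libraries, and PSMD5 is low in si-LINC00673-2 only.

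The non-ATPase subunits of the base and lid held the largest rises of the members. With each siRNA 9 of the 11 rose and 1 fell (32.1% and 26.0% of all tested genes rose), with medians of 0.31 and 0.30. PSMD2, the base scaffold that receives ubiquitin shuttle factors, lay at 52.0, 50.5 and 50.7 FPKM with si-NC, compared with 81.1, 80.2 and 81.8 after si-LINC00673-1 and 82.4, 84.4 and 86.9 after si-LINC00673-2. The groups of siRNA libraries did not overlap si-NC, and the rises were 0.66 ± 0.03 (adjusted P = 9.4e-08) and 0.72 ± 0.03 (adjusted P = 2.8e-08), or 1.58-fold and 1.64-fold. PSMD2 lies on chromosome 3 from 184016886 to 184026842 (GRCh37).

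PSMD1, the other large scaffold of the base, rose from 27.6, 28.0 and 27.3 FPKM with si-NC to 37.1, 38.4 and 39.1 FPKM with si-LINC00673-1 and 38.5, 37.2 and 36.1 FPKM with si-LINC00673-2. The groups did not overlap, with log2 fold changes of 0.45 ± 0.03 (adjusted P = 2.3e-06) and 0.42 ± 0.03 (adjusted P = 2.5e-06). The lid subunit PSMD12 lay at 15.7, 16.8 and 15.9 FPKM with si-NC, compared with 25.8, 25.4 and 25.8 after si-LINC00673-1 and 22.0, 21.5 and 21.7 after si-LINC00673-2. Here the si-LINC00673-1 libraries were the highest and the si-LINC00673-2 libraries lay between them and si-NC. PSMD12 rose by 0.64 ± 0.03 (adjusted P = 2.9e-07) and 0.41 ± 0.03 (adjusted P = 2.9e-06), and was lower with si-LINC00673-2 than with si-LINC00673-1 by 0.23 ± 0.03 (adjusted P = 5.9e-04). PSMD1 lies on chromosome 2 from 231921578 to 232037541 and PSMD12 on chromosome 17 from 65334032 to 65362743 (GRCh37). PSMD1, PSMD2, PSMD12 and PSMC5 remained past both limits with both siRNAs under each alternative processing and with each library left out.

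Of the remaining lid subunits, PSMD11 rose by 0.43 ± 0.04 with si-LINC00673-1 and by 0.36 ± 0.04 with si-LINC00673-2, the latter short of the fold limit. PSMD8 rose by 0.25 ± 0.03 and 0.45 ± 0.03, and was higher with si-LINC00673-2 by 0.20 ± 0.03 (adjusted P = 5.7e-04). PSMD6 was the reverse, with rises of 0.30 ± 0.03 and 0.10 ± 0.03 and a difference of -0.20 ± 0.03 (adjusted P = 0.0011), and its second rise missed the threshold without the unsuffixed library of si-LINC00673-2 (0.07, adjusted P = 0.062) or the r2 library of si-NC (0.09, adjusted P = 0.065). PSMD14, the deubiquitinase that removes the chain, rose by 0.36 ± 0.03 and 0.28 ± 0.03. PSMD7 and PSMD13 rose by 0.22 to 0.31 in the 2 comparisons. PSMD3 passed against si-NC with neither siRNA (-0.10 ± 0.04, adjusted P = 0.071, and 0.10 ± 0.04, adjusted P = 0.052). With si-LINC00673-2 it passed upwards at 0.18 after median-ratio scaling or removal of the GC trend and at 0.23 after removal of the length trend, and with si-LINC00673-1 it passed downwards at -0.09 (adjusted P = 0.029) after removal of the GC trend.

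PSMD4, which binds ubiquitin chains, was the only gene that fell in the class of non-ATPase PSMD subunits of the base and lid. Its levels were 96.0, 93.5 and 99.8 FPKM with si-NC, compared with 75.6, 78.6 and 75.3 after si-LINC00673-1 and 74.7, 71.3 and 76.0 after si-LINC00673-2. The groups did not overlap, and it fell by 0.33 ± 0.04 (adjusted P = 2.6e-05) and by 0.38 ± 0.04 (adjusted P = 7.7e-06), the second value lying just short of the fold limit at 0.77 of the control. Of its 100-base stretches 5.9% also occur in another gene.

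The base assembly chaperones among the PSMD genes did not share a direction. PSMD10 (gankyrin) rose by 0.32 ± 0.03 (adjusted P = 2.6e-05) and 0.40 ± 0.03 (adjusted P = 4.7e-06), past the fold limit with si-LINC00673-2 but not without the r2 library of si-NC (0.36). PSMD5 lay at 11.3, 13.2 and 12.9 FPKM with si-NC, compared with 12.8, 12.1 and 14.1 after si-LINC00673-1 and 9.86, 9.42 and 9.70 after si-LINC00673-2. Only the si-LINC00673-2 libraries stood apart. PSMD5 fell by 0.33 ± 0.06 with si-LINC00673-2 (adjusted P = 0.0010) and had a log2 fold change of 0.06 ± 0.06 with si-LINC00673-1 (adjusted P = 0.48). PSMD9 fell with si-LINC00673-2 by 0.18 ± 0.06 (adjusted P = 0.022) and missed the threshold with si-LINC00673-1 (-0.15 ± 0.06, adjusted P = 0.057). The fall of PSMD9 with si-LINC00673-2 was lost without the unsuffixed or the r2 library of that siRNA (adjusted P = 0.073 and 0.056) or the unsuffixed si-NC library (adjusted P = 0.077). It was also lost after median-ratio scaling (-0.11, adjusted P = 0.12) and with the GC trend (-0.12, adjusted P = 0.062) or the length trend (-0.05, adjusted P = 0.40) removed.

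The activators separated by kind. PSME1 and PSME2, which form the interferon-inducible ring, fell, and PSME3 and PSME4, which act in the nucleus, rose. PSME1 lay at 123, 116 and 122 FPKM with si-NC, compared with 90.1, 92.1 and 90.4 after si-LINC00673-1 and 91.5, 88.7 and 86.4 after si-LINC00673-2. All siRNA libraries were under si-NC, and PSME1 fell by 0.40 ± 0.03 (adjusted P = 3.5e-06) and by 0.44 ± 0.03 (adjusted P = 1.4e-06). Its second fall was under the fold limit after median-ratio scaling (-0.36) and after removal of the GC trend (-0.35). Its first fall was under the limit with the length trend removed (-0.34). PSME2 lay at 91.8, 93.3 and 87.5 FPKM with si-NC, compared with 85.2, 84.9 and 84.0 after si-LINC00673-1 and 78.8, 78.8 and 79.7 after si-LINC00673-2. It fell by 0.10 ± 0.03 (adjusted P = 0.013) and by 0.20 ± 0.03 (adjusted P = 1.7e-04), and the first fall was lost after removal of the length trend (-0.03, adjusted P = 0.35). PSME1 and PSME2 are neighbours on chromosome 14 (GRCh37, 24605367 to 24608176 and 24612574 to 24615855).

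PSME3 lay at 21.8, 23.3 and 21.9 FPKM with si-NC, compared with 27.7, 29.1 and 28.4 after si-LINC00673-1 and 26.5, 25.3 and 26.6 after si-LINC00673-2. The groups did not overlap, with rises of 0.34 ± 0.04 (adjusted P = 3.3e-05) and 0.22 ± 0.04 (adjusted P = 4.5e-04). PSME4 lay at 10.1, 11.2 and 10.8 FPKM with si-NC, compared with 14.1, 14.4 and 14.2 after si-LINC00673-1 and 12.7, 12.2 and 11.8 after si-LINC00673-2. It rose by 0.38 ± 0.04 (adjusted P = 4.3e-05), just past the fold limit and short of it without the r1 library of si-LINC00673-1 (0.37) or the unsuffixed si-NC library (0.34), after median-ratio scaling (0.376), and with the GC (0.31) or length trend (0.34) removed. With si-LINC00673-2 it rose by 0.18 ± 0.04 (adjusted P = 0.0048). PSMF1, the inhibitor, rose by 0.11 ± 0.03 (adjusted P = 0.0098) and 0.08 ± 0.03 (adjusted P = 0.035). Its first rise missed the threshold after removal of the GC trend (0.06, adjusted P = 0.13) or the length trend (0.06, adjusted P = 0.14). Its second rise missed the threshold without the r1 or r2 library of si-LINC00673-2 or of si-NC, at 0.07 to 0.08.

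Among the assembly factors, PSMG1 and PSMG2 act as a pair that builds the alpha ring, and PSMG3 and PSMG4 as a second pair. PSMG2 lay at 58.3, 64.1 and 58.7 FPKM with si-NC, compared with 43.3, 44.2 and 44.7 after si-LINC00673-1 and 46.6, 40.9 and 38.4 after si-LINC00673-2. All siRNA libraries were under si-NC, and PSMG2 fell by 0.44 ± 0.06 (adjusted P = 1.7e-04) and by 0.52 ± 0.06 (adjusted P = 4.8e-05). After removal of the length trend its first fall was just short of the fold limit. PSMG1, its partner, lay at 25.9, 27.8 and 24.9 FPKM with si-NC, compared with 28.0, 28.4 and 26.9 after si-LINC00673-1 and 30.5, 31.4 and 26.5 after si-LINC00673-2. Both siRNA groups overlapped si-NC, with 0.08 ± 0.06 (adjusted P = 0.27) and a rise of 0.16 ± 0.06 (adjusted P = 0.040) that was lost when any 1 of 6 of the 9 libraries was left out, at 0.11 to 0.16.

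PSMG3 lay at 28.1, 25.7 and 28.1 FPKM with si-NC, compared with 30.1, 27.6 and 27.3 after si-LINC00673-1 and 30.3, 32.1 and 31.5 after si-LINC00673-2. It rose with si-LINC00673-2, whose libraries were above si-NC, by 0.19 ± 0.05 (adjusted P = 0.0055), and had 0.05 ± 0.05 with si-LINC00673-1 (adjusted P = 0.37). After removal of the GC trend or of the length trend PSMG3 passed upwards with both siRNAs. PSMG4 lay at 17.6, 14.7 and 15.0 FPKM with si-NC, compared with 11.7, 12.3 and 12.9 after si-LINC00673-1 and 12.3, 18.6 and 16.1 after si-LINC00673-2. The si-LINC00673-2 libraries spread over the whole range of the other groups, with a coefficient of variation of 20.1%, the highest of the tested members in any group. PSMG4 fell by 0.33 ± 0.12 with si-LINC00673-1 (adjusted P = 0.036), which was lost without any 1 of the si-LINC00673-1 libraries or without the unsuffixed or r2 library of si-NC (adjusted P = 0.050 to 0.13). With si-LINC00673-2 its log2 fold change was -0.02 ± 0.12 (adjusted P = 0.88).

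The siRNAs were also compared directly. Between si-LINC00673-2 and si-LINC00673-1, 6 members were higher (13%, compared with 10.2% of all tested genes) and 9 lower (19.6%, compared with 33.9%). This split turned with the scaling, since 18 were higher and 4 lower after median-ratio scaling, and 24 and 2 after removal of the GC trend. Past the fold limit, 0 members were higher (compared with 2.06% of all tested genes) and 1 was lower (2.17%, compared with 5.32%), by limma with the adjusted P and equally with the unadjusted P. That gene was PSMD5, with -0.39 ± 0.06 (adjusted P = 0.0012). Its difference was under the fold limit without the r2 library of si-LINC00673-1 (-0.33) or the r1 library of si-LINC00673-2 (-0.37). The same held with median-ratio scaling (-0.32) and with the GC (-0.27) or length trend (-0.28) removed.

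Genes that work with the proteasome were examined in 6 lists of 48 genes, of which 47 were tested. With si-LINC00673-1 26 rose and 12 fell (32.1% and 32.3% of all tested genes), 10 and 5 of them past the fold limit (11.0% and 15.5% of all tested genes). With si-LINC00673-2 the numbers were also 26 and 12 (26.0% and 44.8% of all tested genes), with 11 and 5 past the limit (10.9% and 23.0%). In the list of other components and maturation factors, 4 of 9 genes rose and 2 fell with si-LINC00673-1, and 5 rose and 2 fell with si-LINC00673-2. POMP, which guides the maturation of the core, lay at 45.9, 47.5 and 45.9 FPKM with si-NC, compared with 67.8, 73.7 and 70.7 after si-LINC00673-1 and 77.6, 75.4 and 73.4 after si-LINC00673-2. POMP rose by 0.60 ± 0.04 (adjusted P = 7.5e-07) and 0.69 ± 0.04 (adjusted P = 1.6e-07), in contrast to the ring builder PSMG2. AKIRIN2, needed for nuclear import of proteasomes, rose by 0.55 with each siRNA, and ZFAND5, which stimulates the proteasome, by 0.54 and 0.46. ADRM1, a ubiquitin receptor of the base, had -0.22 (adjusted P = 0.044) and -0.09 (adjusted P = 0.38).

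In the list of regulators of proteasome genes, 2 of 10 tested genes rose and 5 fell with si-LINC00673-1, and 3 rose and 4 fell with si-LINC00673-2. NFE2L1 lay at 42.9, 44.2 and 44.4 FPKM with si-NC, compared with 31.3, 31.2 and 30.6 after si-LINC00673-1 and 29.9, 29.9 and 31.2 after si-LINC00673-2. The groups did not overlap, and NFE2L1 fell by 0.48 ± 0.03 (adjusted P = 9.0e-07) and by 0.52 ± 0.03 (adjusted P = 3.5e-07). DDI2, the protease that cleaves NFE2L1 into its active form, rose from 5.97 ± 0.45 FPKM with si-NC to 10.6 ± 0.20 and 10.2 ± 0.44 FPKM (mean ± SD, n = 3 each), or by 0.74 and 0.69 on the log2 scale. KEAP1, which holds NFE2L2 back, fell by 0.50 and 0.88, while NFE2L2 passed with neither siRNA (0.10 and 0.01). HSF1 fell by 0.83 ± 0.25 and by 0.78 ± 0.25, with libraries spread from 3.37 to 7.69 FPKM in the siRNA groups against 8.52 to 12.5 FPKM with si-NC. The protein activity of these regulators was not measured.

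Upstream of the proteasome, UBA1, the main ubiquitin-activating enzyme, had the largest change of all listed genes. It lay at 56.6, 58.0 and 50.2 FPKM with si-NC, compared with 144, 148 and 159 after si-LINC00673-1 and 156, 148 and 148 after si-LINC00673-2. No siRNA library overlapped si-NC, and UBA1 rose by 1.44 ± 0.06 (adjusted P = 5.1e-08) and 1.44 ± 0.06 (adjusted P = 2.1e-08). UBA6, the alternative activating enzyme, rose by 0.46 and 0.39. In the p97 list, 8 of 10 genes rose and 1 fell with each siRNA. UFD1, which recruits ubiquitylated substrates, rose by 0.43 and 0.64, and UBXN1 fell by 1.17 ± 0.12 and by 1.04 ± 0.12. In the list of shuttle receptors, 5 of 7 rose and 1 fell with si-LINC00673-1, and 3 rose and 2 fell with si-LINC00673-2. UBQLN1, which delivers substrates to the base, rose by 0.71 ± 0.03 and 0.67 ± 0.03. Of the 5 proteasome-bound deubiquitinases and ligases, 5 rose with si-LINC00673-1, and 2 rose and 2 fell with si-LINC00673-2. In the list of ubiquitin precursors and activating enzymes, 2 of 6 genes rose and 3 fell with si-LINC00673-1, and 5 rose and 1 fell with si-LINC00673-2.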

How the data were processed

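The authors sequenced total RNA of 9 libraries on the BGISEQ-500 platform and deposited 1 table of FPKM per gene, rounded to 2 decimals and given 2 times with equal values. The submitters' processing notes name Bowtie2 and GRCh37.p13. The counting tool and its use of strand are not given in the sources used here. The deposited columns of log2 ratios, p-values and q-values between groups (3 of each) were not used. Of 19934 lines, 4 without values were left out.

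The main test was limma 3.58.1 (R 4.3.3; lmFit, eBayes with a trend) on log2(FPKM + 1) over all 9 libraries, with condition as the only factor, after genes averaging under 1 FPKM were left out. Because 1 FPKM was added before taking logs, fold changes of low genes are understated. The fit was tested on simulated data with known changes. The spacing of low FPKM values in genes of 300 to 2000 bases gave an estimate of depth. No count model was run. Tables and plots used Python 3.11.15 (pandas 2.3.3; numpy 2.4.6; matplotlib 3.10.9). GC content and shared 100-base stretches came from the longest GENCODE transcript of each gene on GRCh38, which can differ from the transcript counted.

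The members and lists were chosen with earlier results of these data known, and the lists were compiled from general knowledge. Named genes were those past both limits with both siRNAs, the catalytic and inducible beta subunits, all PSME and PSMG genes, members that differed between the siRNAs past the fold limit, and listed pathway genes past both limits with both siRNAs. Further members were added with their values. Alternatives were another added value (0.1 FPKM), no filter or a minimum of 5 FPKM, no fold limit, an unadjusted P, only the libraries compared, a replicate block, each library left out, median-ratio scaling, and removal of a GC or a length trend. The genes with a GC value, with no trend removed, were fitted as an alternative chosen after seeing the data.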

Additional observations from a re-analysis of the deposited data

Results flagged for a closer look

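The difference between si-LINC00673-2 and si-LINC00673-1, tested directly with limma over all tested genes, passed an adjusted P of at most 0.05 for 15 members, which is why they are given here. Lower with si-LINC00673-2 were PSMD5 (-0.39 on the log2 scale), PSMD12 (-0.23), PSME4 (-0.20), PSMD6 (-0.20), PSMB2 (-0.14), PSME3 (-0.12), PSMA4 (-0.10), PSME2 (-0.10) and PSMD14 (-0.075). Higher were PSMA7 (0.30), PSMB10 (0.22), PSMD3 (0.20), PSMD8 (0.20), PSMG3 (0.14) and PSMB1 (0.10). After median-ratio scaling, PSMD14, PSMA4, PSMB2, PSME2 and PSME3 no longer passed and PSMD14 stood at 0.0026. With the GC trend removed these genes, PSMD6 (-0.064) and PSME4 (-0.081) no longer passed, and PSMA4 (0.017) and PSMD14 (0.061) stood on the other side of 0. With the length trend removed PSME4, PSMB2, PSMD14, PSME3 and PSMB1 no longer passed. With the replicate block PSME2 (adjusted P = 0.050), PSME3 (0.067), PSMG3 (0.073) and PSMD14 (0.082) did not pass, and leaving out single libraries lost the call of PSMD14, PSMA4, PSMG3, PSMB1, PSME2 and PSME3. PSMD5 still passed after median-ratio scaling and removal of the GC trend, at -0.32 and -0.27.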

How the results depend on the processing

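The counts of members past the fold limit rest on few genes. With si-LINC00673-1, 3 rose after removal of the GC trend, and 8 rose and 1 fell after removal of the length trend. With si-LINC00673-2, 8, 9 and 8 rose after median-ratio scaling and removal of the GC and length trends. Between the siRNAs, 2 members were higher after scaling and 1 after removal of the GC trend, and 0 were lower under these and the length trend. At an adjusted P alone this comparison gave 18, 24 and 10 higher and 4, 2 and 5 lower under the same 3 settings. Without the fold limit the counts higher and lower were 25 and 10, 26 and 11, and 6 and 9 in the 3 comparisons, and 26 and 12 for the listed pathway genes with each siRNA, of which 3 fell past the limit with si-LINC00673-1 after removal of the GC trend. The si-LINC00673-2 median of all tested genes, -0.095, was -0.032 after scaling, 0.003 after removal of the GC trend and 0.0021 after removal of the length trend. Class medians moved with it. With si-LINC00673-2 the core class was 0.22 after scaling, 0.26 with the GC and 0.21 with the length trend removed and 0.18 at a minimum of 5 FPKM, the regulatory class 0.25, 0.24 and 0.29 under the first 3, the activators 0.062, 0.046 and 0.038, and the assembly class 0.14 after scaling and 0.13 with the GC trend removed. With si-LINC00673-1 the GC and length settings gave 0.053 and 0.19 for the core class and 0.12 and 0.26 for the regulatory class, the GC setting 0.084 for the activators and the length setting -0.068 for the assembly class. Under the 3 scalings, 8 members changed sign in a comparison with si-NC. These were PSMB10 with si-LINC00673-2 (0.034, GC trend removed), PSMB5 with si-LINC00673-1 (0.065, length) and si-LINC00673-2 (0.0021, scaling, and 0.0052, length), PSMD5 with si-LINC00673-1 (-0.016, GC), PSMG4 with si-LINC00673-2 (0.047, scaling, and 0.056, GC), and with si-LINC00673-1 PSMA2 (0.018, length), PSMC1 (0.042, length), PSMC3 (0.046, GC, and 0.044, length) and PSMC4 (0.040, GC, and 0.065, length). With each library left out, the ranges were -0.045 to 0.028 for PSMB5 and -0.0071 to 0.10 for PSMD5 with si-LINC00673-1, -0.15 to 0.13 for PSMG4 with si-LINC00673-2, -0.18 to -0.090 and -0.017 to 0.13 for the assembly medians, and 0 to 1 higher, 0 to 1 lower, and 4 to 9 and 5 to 12 at an adjusted P alone, for the comparison of the siRNAs. The cause of these moves was not tested.

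Same-numbered libraries did not deviate together (correlations of -0.239 to 0.104 over 9 pairs). With the number as a replicate block, 5 members rose and 5 fell past the fold limit with si-LINC00673-1 and 5 and 4 with si-LINC00673-2, while PSMG4 with si-LINC00673-1 (adjusted P = 0.055) and PSMF1 with si-LINC00673-2 (adjusted P = 0.079) missed the threshold, as did PSME2, PSME3, PSMG3 and PSMD14 between the siRNAs (adjusted P = 0.050 to 0.082). Another added value changed no side of the threshold among the 83 gene values examined. The depth of 23.3 to 27.3 (in units of 1e6 fragments) per library put 88 to 164 fragments on PSMB9, the lowest tested member, so counting error matters most there.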
